A study of Mus musculus with 45 samples.

Results

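The RNA-seq library of embryonic mouse heart labelled Gata4 KO was compared with the E12.5 heart library of the same study, gene by gene. A gene was included when it reached at least 5 FPKM (read density scaled by gene length and by all mapped reads) in either library, which 8218 of the 23284 listed genes did. Both libraries came from primary heart tissue from embryos of stage E12.5, and 1 library stood on each side. The series lists the alleles Gata4fbio, Rosa26BirA, cTNTcre and Gata4flox for all its samples together, without saying which library carried which of them. Cre removes the floxed piece of Gata4flox, and cTNTcre drives Cre from the cardiac troponin T promoter, so it acts in heart muscle cells and leaves other cells of the heart with the allele intact. RNA was pooled before library preparation, and the labels give neither the number nor the sex of the embryos. With 1 library a side no test across samples was possible, so sizes are described and no gene is called changed. The 2 adult heart libraries, the only group with more than 1 library, were set against each other by the same rule as a yardstick. The labels do not say whether those 2 came from separate animals.

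GATA4 is a zinc-finger transcription factor that binds the DNA core GATA and works in heart muscle with NKX2-5, TBX5, MEF2 and the cofactor FOG2 (Zfpm2). It is needed for heart tube formation, for growth of the ventricular wall and for the endocardial cushions that become valves, and it is known to bind near genes of the contractile apparatus and the natriuretic peptides. The related GATA1 and GATA2 act in blood cells, and GATA5 and GATA6 are also made in the heart.

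Levels below are log2(FPKM + 1), given for the library labelled Gata4 KO first and for E12.5 second, and a difference is the first minus the second on that scale. Gata4 stood at 6.13 in the labelled library (4159 reads) and 5.93 in E12.5 (4290 reads). The ratio of FPKM was 1.15, with an exact 95% interval of 1.10 to 1.20. This interval and those below cover counting error only. The Gata4 level therefore did not go the way of the label. The value covers the whole transcript, and the piece that the floxed allele loses is named by no label, so every direction below rests on the label alone. Tnnt2, the gene whose promoter drives the Cre, stood at 11.28 against 11.96. Among the other factors of the family, Gata6 stood at 5.36 against 5.29, Gata5 at 3.33 against 2.62 and Gata2 at 3.32 against 2.80. Of the cofactors, Zfpm1 (FOG1) stood at 4.09 against 3.64 and Zfpm2 at 3.10 against 3.27. Thus 5 of these 6 genes were higher in the labelled library, none by 2-fold.

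The 2 libraries had 17805109 and 21056784 mapped reads, of which 76.8% and 75.9% lay on listed genes. The adult libraries had 12619710 and 12357585. The 8 globin genes counted took 5.39% of the reads on genes in the labelled library and 1.83% in E12.5. X-linked Xist stood at 4.86 against 3.99, and the Y-linked genes at 3.33 against 4.22 for Eif2s3y and 2.53 against 3.08 for Ddx3y, so X- and Y-linked genes differed in opposite directions. What part the globin share or these genes have in the results below was not tested. The ribosomal RNA precursor Rn45s stood at 6.21 against 7.56.

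Sequences near the start sites of named genes are shown first, because GATA4 is known to act through short GATA elements there. Windows from 250 bases before to 50 bases after the start came from RefSeq for the build GRCm38.p6. They were searched on both strands for the hexamers AGATAA, its variant AGATAG, further TGATAA, plus TGATAG. These can overlap by their ends, and a window counted once whatever its number of matches. Nppa, Nppb and the named genes with at least a 2-fold difference and 50 FPKM made 44 genes, of which 11 had a match, 22 had none and 11 had no window in the table. A match was present in 29.8% of all 32851 windows. For genes only the first listed window was searched, and it held a match in 17.6% of the 6584 members with a window. For the genes past 2-fold, only 67 of 112 higher and 35 of 61 lower genes had a window, under 80%, so a comparison of their shares is void. The set of 44 genes also falls under 80%, and Nppa and Nppb were added to it by name, so no share is drawn from it. In the 6 windows printed here, capitals mark a match or its reverse complement and each sequence runs 5′ to 3′ on the strand of the gene. Nppb and Nppa encode the natriuretic peptides BNP and ANP. Hba-x is an embryonic alpha-type globin, Alas2 the first enzyme of haem synthesis in red cells, Myl1 a myosin essential light chain and Cox5a a subunit of cytochrome oxidase.
Nppb, chr4:147985650-147985949, plus strand: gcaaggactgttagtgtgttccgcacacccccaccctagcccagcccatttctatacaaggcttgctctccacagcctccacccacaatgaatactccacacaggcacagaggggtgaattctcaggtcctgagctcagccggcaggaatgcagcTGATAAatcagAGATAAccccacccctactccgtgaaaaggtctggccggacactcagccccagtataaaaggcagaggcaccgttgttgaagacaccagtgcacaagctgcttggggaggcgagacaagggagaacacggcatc
Nppa, chr4:148000472-148000771, plus strand: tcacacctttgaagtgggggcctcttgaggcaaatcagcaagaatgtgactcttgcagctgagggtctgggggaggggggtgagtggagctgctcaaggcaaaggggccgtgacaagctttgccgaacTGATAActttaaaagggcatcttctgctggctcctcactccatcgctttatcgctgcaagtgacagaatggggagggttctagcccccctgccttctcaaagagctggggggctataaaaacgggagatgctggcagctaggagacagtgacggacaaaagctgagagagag
Hba-x, chr11:32276350-32276649, plus strand: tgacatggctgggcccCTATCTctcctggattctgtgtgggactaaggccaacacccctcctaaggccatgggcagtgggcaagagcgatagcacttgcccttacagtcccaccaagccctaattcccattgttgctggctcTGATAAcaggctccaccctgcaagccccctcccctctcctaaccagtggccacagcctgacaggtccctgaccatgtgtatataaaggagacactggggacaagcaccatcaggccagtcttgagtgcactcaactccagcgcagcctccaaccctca
Alas2, chrX:150547167-150547466, plus strand: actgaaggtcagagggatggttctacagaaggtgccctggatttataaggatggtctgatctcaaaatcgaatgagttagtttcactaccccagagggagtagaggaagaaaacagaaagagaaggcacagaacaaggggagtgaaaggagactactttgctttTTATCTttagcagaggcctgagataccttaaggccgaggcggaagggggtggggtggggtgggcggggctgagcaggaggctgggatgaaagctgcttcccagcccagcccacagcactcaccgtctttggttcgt
Myl1, chr1:66945007-66945306, minus strand: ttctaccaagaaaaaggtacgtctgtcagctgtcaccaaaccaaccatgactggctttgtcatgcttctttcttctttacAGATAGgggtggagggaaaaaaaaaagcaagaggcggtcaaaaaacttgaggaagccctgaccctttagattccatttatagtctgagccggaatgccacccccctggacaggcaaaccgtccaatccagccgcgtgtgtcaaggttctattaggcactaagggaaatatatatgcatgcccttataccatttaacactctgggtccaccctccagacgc
Cox5a, chr9:57520982-57521281, plus strand: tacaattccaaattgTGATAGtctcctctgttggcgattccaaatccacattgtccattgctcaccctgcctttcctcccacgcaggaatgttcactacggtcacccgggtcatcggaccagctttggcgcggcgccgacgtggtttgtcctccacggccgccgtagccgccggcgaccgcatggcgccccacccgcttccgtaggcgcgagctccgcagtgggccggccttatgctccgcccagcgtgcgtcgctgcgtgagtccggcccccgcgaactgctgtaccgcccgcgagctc
Nppb held 2 matches, starting at -95 and -84 from the start site, and Nppa held 1 at -122. In Hba-x the matches lay at -234 and -108, and in Alas2 at -86, where the opposite strand carries the hexamer. Myl1 had a match at -170 and stood higher in the labelled library, and Cox5a had one at -235 and stood lower. Tnni3 and Mb, among the genes with the largest lower values, had none of these letters in the window searched, which for Mb was the first of 3. A match is a string of letters and not a measured binding site.

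Genes at least 2-fold higher in the labelled library (a difference of 1 or more) numbered 112, or 1.36% of the members, and 61 were at least 2-fold lower, or 0.742%. Together these 173 genes made 2.11% of the members, against 31 of 6460 genes, 0.48%, between the 2 adult libraries. By direction alone 3557 members, 43.3%, were higher in the labelled library, and the median difference over all members was -0.05. The adult pair had a median of -0.03. A gene that reached 5 FPKM in 1 library only could stand higher only there, so the filter fixed its direction. Counts by direction, here and in the lists below, are in part a result of the filter. Adult differences are replicate 1 minus replicate 2, an arbitrary order, so only their size and not their sign serves as a yardstick. At 1.5-fold the E12.5 pair had 378 higher and 297 lower genes (8.21% of members) and the adult pair 1.89%. At 3-fold 21 genes were higher and 9 lower (0.365%, against 0.155% in the adult pair), and at 4-fold 12 and 2 (0.170% against 0.108%). At 6-fold the shares were 0.0608% and 0.0619%, and at 8-fold, with 1 gene at E12.5, 0.0122% and 0.0464%. Over all entries the excess over the adult pair was thus not seen at the largest sizes. Small RNA entries weigh on this yardstick. Among the 31 adult genes, snoRNA, scaRNA and snRNA entries made 2 higher and 4 lower, and microRNA entries 3 and 5. Among the 173 they made 1 and 9, and 4 and 3. Mir5119, at 0 and 3.25, had the largest adult difference. Shares without such entries were not computed. The gap between the pairs was widest among abundant transcripts. For the 41 members with a mean level of at least 10, the standard deviation of the difference was 0.654 between the E12.5 libraries and 0.142 between the adult libraries, and 9.76% against 0% passed 2-fold. Those were 4 genes, all higher and all globins (Hbb-y, Hba-x, Hbb-bh1 and Beta-s). Without globins, a step chosen after the values were seen, the deviation of the remaining 37 genes was 0.410, none passed 2-fold, and the adult value stayed at 0.142. For those under a mean level of 4 these deviations were 0.369 and 0.269.

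The counting interval of the ratio excluded 1 for 59.9% of members in the E12.5 pair. In the adult pair, with no difference of group, it did so for 36.7% of genes, so an interval that excludes 1 in the E12.5 pair does not by itself set the condition apart from the spread between libraries. Of the 173 genes past 2-fold, 73 had at least 5 FPKM in an adult library, and their median absolute difference between the adult libraries was 0.17. Only Acta1 and the small nuclear RNA Rnu11 also passed 2-fold there. Acta1 stood at 8.19 and 7.02 in the adult libraries, nearly the gap seen at E12.5, and Rnu11 at 1.30 and 2.64.

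**Figure D1:**
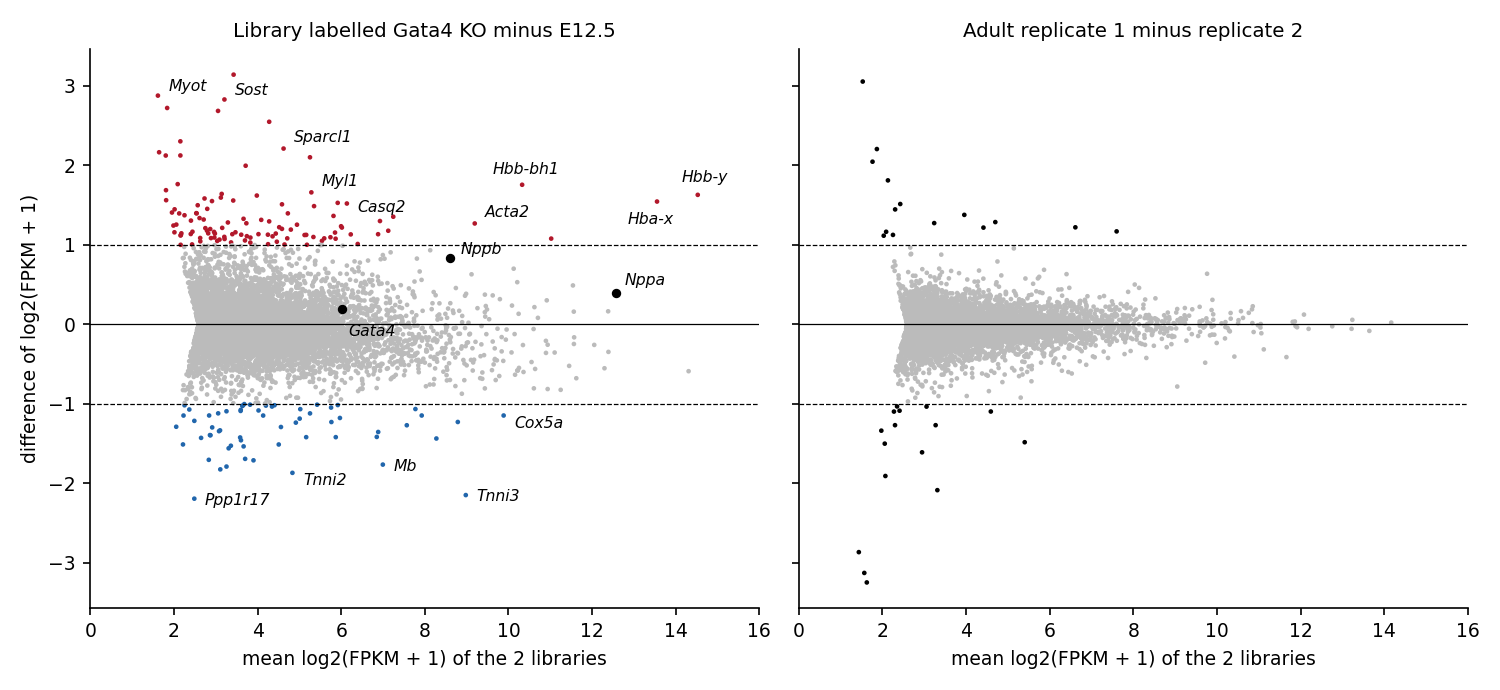
Each point is a gene with at least 5 FPKM in either library of its pair; the x axis is the mean log2(FPKM + 1) of the pair and the y axis the difference, for the library labelled Gata4 KO minus E12.5 (left, 8218 genes) and adult replicate 1 minus replicate 2 (right, 6460 genes). Dashed lines mark 2-fold; on the left red points are the 112 higher and blue points the 61 lower genes, with Gata4, Nppa and Nppb in black, and on the right black points are the 31 genes past 2-fold, which are nearly all of low level while the left panel also has some at high levels.

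The difference moved with gene length in the E12.5 pair. Among the 175 members of up to 500 bases the median difference was -0.35, and it was -0.20 for 690 members of 500 to 1000 bases and -0.09 for 2050 members of 1000 to 2000 bases. Members of 2000 to 4000 bases had a median of -0.03, and the 805 members over 6000 bases had 0.03. In the adult pair the same classes lay between -0.04 and 0.02. Short genes thus stood lower in the labelled library as a whole. For this reason list medians are also given after subtracting from each gene the median of members of like length (10 classes of equal size), a step chosen after the values were seen. With that step 141 genes were higher and 42 lower by 2-fold, so that 77.0% of the calls were higher, against 64.7% as deposited. All 112 higher genes stayed among the 141 and 42 of the 61 lower genes stayed.

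**Figure D2:**
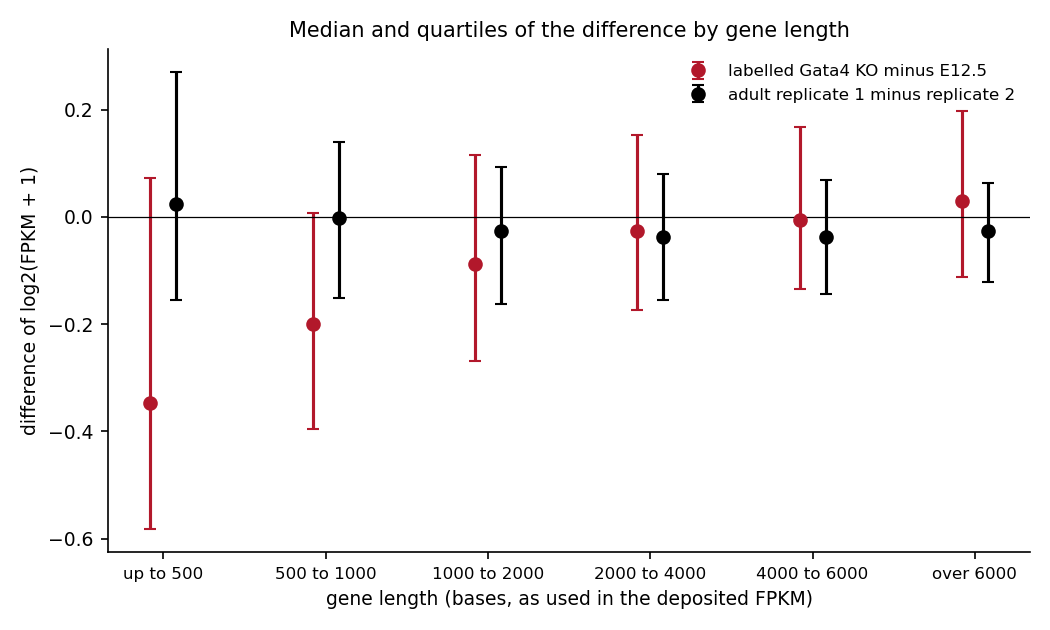
Median (points) and quartiles (bars) of the difference in log2(FPKM + 1) by gene length in bases, for the library labelled Gata4 KO minus E12.5 (red) and adult replicate 1 minus replicate 2 (black). The red medians go from -0.35 in the shortest class to 0.03 in the longest, and the black medians stay between -0.04 and 0.02.

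Heart muscle genes did not move as a block, and a few of them were among the largest lower values. Tnni3, the troponin I of the mature heart, stood at 7.90 in the labelled library and 10.05 in E12.5, a ratio of 4.46 in favour of E12.5 (4.30 to 4.62), against 12.16 and 12.22 in the adult libraries. Tnni2, the troponin I of fast skeletal muscle, stood at 3.90 against 5.77, a ratio of 3.85 (3.25 to 4.58). The embryonic heart's main troponin I, Tnni1, was closer at 10.06 against 10.66. Mb, the oxygen store myoglobin, stood at 6.11 against 7.88 (ratio 3.44, 3.24 to 3.65) and Myh7b, a slow-type myosin heavy chain, at 2.53 against 4.09 (3.36, 3.05 to 3.71). All 4 of these lower genes differed by under 0.15 between the adult libraries.

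The rest of the contractile lists split. Of 17 thin-filament members, 6 were higher and 11 lower, with a median of -0.26 (-0.20 after the length step). Tnnc1, cardiac troponin C, stood at 10.84 against 11.66. Cardiac actin Actc1 was near equal at 11.92 against 12.18, while skeletal actin Acta1 stood at 7.71 against 6.54 and smooth-muscle actin Acta2 at 9.83 against 8.56. Of 14 thick-filament members 6 were higher and 8 lower, with a median of -0.06. Myl2, the ventricular regulatory light chain, was the most abundant of them at 14.01 against 14.60. Mybphl, a myosin-binding protein known from atria, stood at 4.79 against 3.17, a ratio of 3.33 (2.85 to 3.91), and Myl1 at 6.12 against 4.45, a ratio of 3.26 (2.92 to 3.65). Z-disc and titin genes were even, with 11 of 22 higher. Among them Myot, the Z-disc protein myotilin, had 287 reads against 6, at levels of 3.05 and 0.18, the largest FPKM ratio of the named genes at 56.6 (25.7 to 155). Its 2 adult levels were 5.15 and 4.36.

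Genes known from 1 chamber are given as a pair of lists. In the atrial list 9 of 15 members stood higher, with a median of 0.21, or 0.35 after the length step. Beside Mybphl, the atrial light chain Myl7 stood at 11.79 against 11.30, the potassium channel subunit Kcnj3 at 3.73 against 2.75 and Nppa at 12.77 against 12.37. Myl7 levels of 4.65 and 3.27 in the adult libraries lay further apart than that. Pam, which amidates peptides, went the other way at 6.93 against 7.59, and so did Myl4 at 11.19 against 11.71. Of 14 members of the ventricular list 3 were higher and 11 lower, with a median of -0.22, or -0.15 after the length step. Hey2, a repressor of compact ventricular muscle, stood at 4.92 against 5.93, and Irx4, a ventricular homeobox factor, at 3.51 against 4.50, just short of 2-fold. Kcne1, a potassium channel subunit, stood at 2.40 against 3.75, and Mycn, a MYC-family factor of dividing ventricular muscle, at 3.56 against 4.71. Slco3a1, at 3.96 against 2.83, and Gja3, at 3.32 against 1.82, were the 2 ventricular-list genes over 2-fold higher. Between the adult libraries the medians of the atrial and ventricular lists were 0.21 and 0.14 in size, so before the length step the atrial list differed by about as much there. How much atrial tissue each pool held is not known from the labels.

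Cardiac transcription factors stood lower more often than higher, 15 of 22, with a median of -0.32 that the length step left at -0.32. Over all members 4661 of 8218 stood lower, so a lower majority is not particular to these factors. Apart from Mycn and Hey2, none reached 2-fold. Nkx2-5, a GATA4 partner, stood at 6.99 against 7.62, and Hopx, a small homeodomain protein of muscle maturation, at 7.64 against 8.42. Hand2, a ventricular and cushion factor, was equal at 6.22 in both libraries. Tbx5, which acts in the atria and left ventricle, stood at 4.43 against 4.37 and Mef2c at 4.13 against 4.01. Of 18 members of the list of described GATA4 target genes 7 were higher and 11 lower, close to the share over all members. The median was -0.19, or -0.05 after the length step. Tnni3 was its only gene past 2-fold. At the other end stood Nppb at 9.02 against 8.19, a ratio of 1.78 (1.72 to 1.85). Nppb levels of 7.22 and 6.0 in the adult libraries lay further apart than that.

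Calcium-handling genes included 2 that stood out. Casq2, the cardiac calcium store protein calsequestrin, stood at 6.89 against 5.37, a ratio of 2.91 (2.77 to 3.07), and its skeletal relative Casq1 at 6.40 against 5.33. The remaining 21 of 23 members lay within 2-fold and the list median was -0.16. The ATPase that refills the store, Atp2a2, stood at 7.13 against 7.46. Hcn4, the pacemaker channel, stood at 3.76 against 2.55, a ratio of 2.59 (2.30 to 2.93). Gja4, the arterial connexin 37, stood at 5.14 against 4.14, and the main muscle connexin Gja1 at 6.86 against 6.84. Of 24 genes of fast skeletal muscle only 7 were members, 5 higher and 2 lower. The factors that define skeletal muscle were near 0 in both libraries, with Myod1 at 0.04 against 0.17, Myog at 0.78 against 0.66 and Myf5 at 0 in both.

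**Figure D3:**
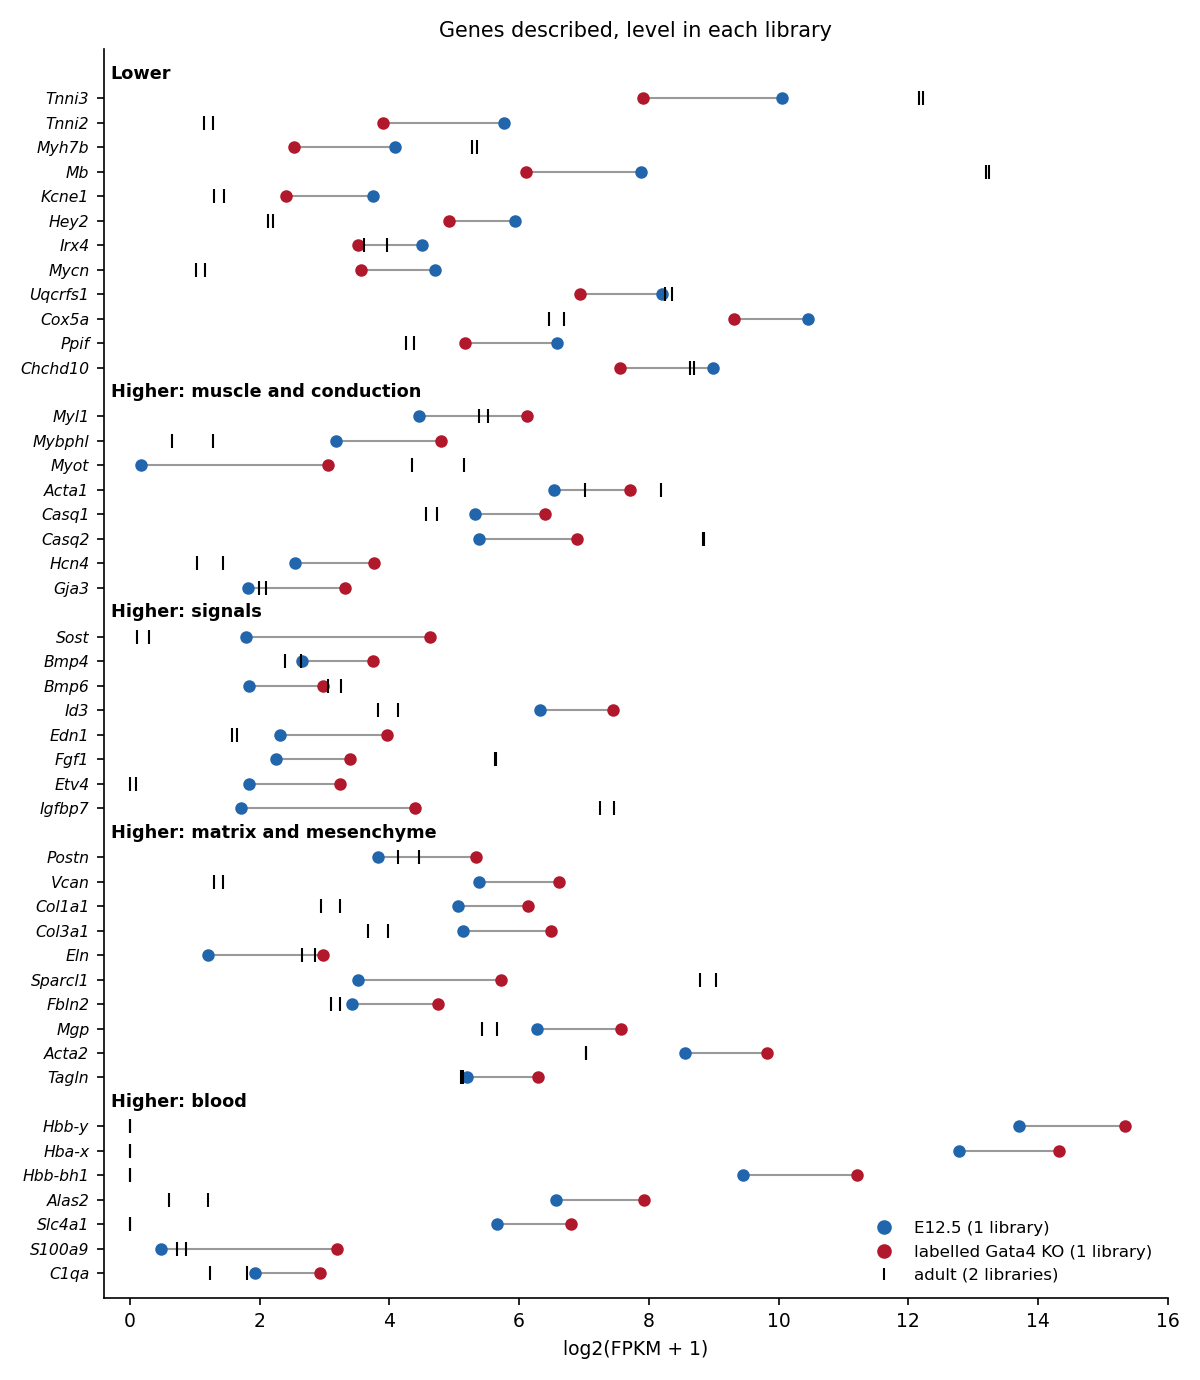
Level, as log2(FPKM + 1), of 45 described genes in the E12.5 library (blue) and the library labelled Gata4 KO (red), joined by a line, with the 2 adult libraries as black ticks. Tnni3, at 7.90 against 10.05, and Sost, at 4.62 against 1.79, have among the longest lines; adult ticks mostly lie close together, and those of Acta1 lie 1.17 apart.

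Genes of mitochondrial energy use stood lower together, by small amounts. All 25 members of the citric acid cycle and pyruvate list were lower, with a median of -0.27. The enzyme Idh2 stood at 8.70 against 9.19 and Mdh2 at 8.52 against 8.94. Of 40 oxidative phosphorylation genes 34 were lower, with a median of -0.33. Uqcrfs1, the Rieske iron-sulfur protein of complex III, stood at 6.93 against 8.20 and Cox5a at 9.31 against 10.46, and these 2 passed 2-fold. The most abundant of the list, Ndufa4, stood at 10.20 against 11.01, whereas Cox6a2, a muscle form of a cytochrome oxidase subunit, stood at 10.31 against 10.18. Of 26 genes of fatty acid and ketone use 20 were lower, with a median of -0.21. Ppif, the cyclophilin of the mitochondrial pore, at 5.16 against 6.58, and Chchd10, a mitochondrial intermembrane protein, at 7.56 against 8.99, were among the 25 largest lower values.

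Gene length bears on this group. Oxidative phosphorylation genes had a median length of 936 bases, and members in their length classes averaged a median difference of -0.16. After the length step 32 of the 40 were lower with a median of -0.23, and 23 of 25 citric acid cycle genes with -0.23. Cox5a then stood at a difference of -0.93, no longer 2-fold. The cytosolic ribosomal proteins, with a median length of 830 bases, had a median of -0.06 that became 0.08. In the adult pair the 3 energy lists had medians of 0.04, 0.07 and 0.01. The length step thus brought the medians of these energy lists closer to 0 and left them below it.

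Cell cycle genes stood lower as well. Of 28 genes of G2 and mitosis 27 were lower and Tpx2 was near equal, with a median of -0.33, or -0.28 with all 28 below 0 after the length step. Ccna2, cyclin A2, a described GATA4 target, stood at 5.15 against 6.0. Top2a, a topoisomerase of dividing cells, stood at 5.77 against 6.19 and Ube2c at 6.84 against 7.19. Of 26 genes of G1 and S phase 20 were lower, with a median of -0.22. Pcna, the replication clamp, stood at 6.50 against 7.09, whereas Ccnd2, a cyclin D gene, was higher at 7.31 against 7.02. No gene of either list passed 2-fold. Inhibitors and p53 targets had a median of 0.05, with Cdkn1c at 9.58 against 9.39 and Cdkn1a at 3.90 against 3.40. Only 2 of the G2 genes reached 5 FPKM in adult heart, so the adult pair gives little yardstick for that list.

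Signals that pattern the heart wall and cushions stood higher in the labelled library. Of 18 BMP pathway members 17 were higher, with a median of 0.40, unchanged at 0.40 by the length step, against -0.19 for the list in the adult pair. BMPs are secreted ligands that act on neighbouring cells through SMAD1 and SMAD5. Among ligands, Bmp4 stood at 3.75 against 2.65 and Bmp6 at 2.97 against 1.83, both past 2-fold, while Bmp10, made by trabecular muscle, stood at 6.16 against 5.95. The receptors moved least, with Bmpr1a at 4.38 against 4.25. Target genes were higher, with Id3, an inhibitor of bHLH factors, at 7.45 against 6.31 and Id2 at 6.82 against 6.31. Sost, an antagonist of BMP and Wnt signals, had the largest difference of the list at 4.62 against 1.79, a ratio of 9.59 (7.84 to 11.8). The sole lower member was Bambi, a decoy receptor, at 3.52 against 3.80. Sost and Bmp6 reached 5 FPKM only in the labelled library. The filter thus fixed their direction, and the count of 17 is in part its result.

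Related pathways went the same way by direction with fewer genes past 2-fold. FGF, neuregulin and hedgehog genes had 10 of 12 higher and a median of 0.46. Fgf1, a ligand, stood at 3.39 against 2.25 and Etv4, an ETS factor induced by FGF signals, at 3.23 against 1.83, a ratio of 3.28 (2.66 to 4.05). Another such target, Dusp6, stood at 4.26 against 3.84. Erbb2, the neuregulin co-receptor, was lower at 4.17 against 4.56. Fgf1 and Etv4, the 2 genes of this list past 2-fold, reached 5 FPKM only in the labelled library. The filter thus fixed their direction, and the count of 10 is in part its result. TGF-beta genes had 11 of 16 higher, with none past 2-fold, Tgfb2 at 4.83 against 4.18 and Ltbp4, a latent binder, at 4.45 against 3.48. Of 7 Notch members 5 were higher, with Hes1 at 5.33 against 4.70, while the Notch-related Hey2 was lower. Edn1, the endothelial peptide endothelin-1, stood at 3.96 against 2.32, a ratio of 3.65 (3.10 to 4.31), and its activating enzyme Ece1 at 6.45 against 5.82. Igfbp7, a secreted growth factor binder of vessels, stood at 4.40 against 1.71, a ratio of 8.83 (6.70 to 11.8), while the growth factor Igf2 was near equal at 11.64 against 11.48. Edn1 and Igfbp7 also reached 5 FPKM only in the labelled library.

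Matrix and mesenchymal genes made up the broadest group of higher values. In bulk tissue fewer cells of a type and less RNA per cell cannot be told apart, and that holds for every list here. Of 15 valve and cushion mesenchyme members 13 were higher and 6 passed 2-fold, with a median of 0.90, or 0.87 after the length step. The summed FPKM of that list's 26 genes was 626 against 340, and none of them was at 0. Postn, a matricellular protein of valves and fibroblasts, stood at 5.34 against 3.83 (ratio 2.99, 2.76 to 3.23). Vcan, the cushion proteoglycan versican, stood at 6.61 against 5.38 with 21440 and 10630 reads. The fibrillar collagens Col3a1, at 6.50 against 5.13, and Col1a1, at 6.13 against 5.05, belonged here too. Tbx20, a factor shared by cushion and muscle, was lower at 5.10 against 5.52.

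Among matrix lists, 15 of 17 collagens were higher with a median of 0.67, and basement membrane Col4a1 stood at 7.32 against 6.90. Elastic fibre and matricellular genes had 23 of 26 higher and 6 past 2-fold, with a median of 0.78. Eln, elastin, stood at 2.97 against 1.21 (ratio 5.23, 4.22 to 6.54) and Sparcl1 at 5.73 against 3.51 (4.98, 4.58 to 5.42). Thbs4, a thrombospondin, was the exception past 2-fold at 2.87 against 4.33. Of 19 proteases and inhibitors 18 were higher, led by Adamtsl2 at 3.21 against 1.09, a ratio of 7.34 (5.76 to 9.47). Eln and Adamtsl2 reached 5 FPKM only in the labelled library. The filter thus fixed their direction, and the counts of 23 and 18 are in part its result. Among proteoglycans Bgn, biglycan, stood at 6.62 against 5.41 and the glypican Gpc1 lower at 3.91 against 5.20. In the adult pair the valve, collagen and elastic fibre lists had medians of -0.25, -0.28 and -0.24, so whole lists of this kind can move together between libraries of 1 group. Those adult shifts were under 1.5-fold.

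Markers of other cell types of the heart were also higher. Smooth muscle and pericyte genes had 11 of 12 higher and 5 past 2-fold, with a median of 0.56 and a sum of 1649 against 866 FPKM. Acta2 was the main part of that sum, Mgp stood at 7.58 against 6.28 and the pericyte receptor Pdgfrb at 4.17 against 3.04. Epicardial genes had 11 of 12 higher with a median of 0.76, a sum of 295 against 191 FPKM, and Wt1 at 3.77 against 3.05 and Tcf21 at 5.41 against 4.59. The epicardial factor Tbx18 was the exception at 4.18 against 4.36. Endothelial and endocardial genes had 19 of 21 higher with a median of 0.36 and none past 2-fold, and a sum of 879 against 669 FPKM. Emcn stood at 6.61 against 5.92, and Kdr, the VEGF receptor, was 1 of the 2 lower members at 3.84 against 4.18. The other lower member lay further down, at a difference of -0.64. No gene of these 3 lists was at 0 in both libraries. The sums cover all 20, 18 and 26 genes of the lists in turn, also those below 5 FPKM. The part of such cell types in the differences of single genes above was not tested.

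**Figure D4:**
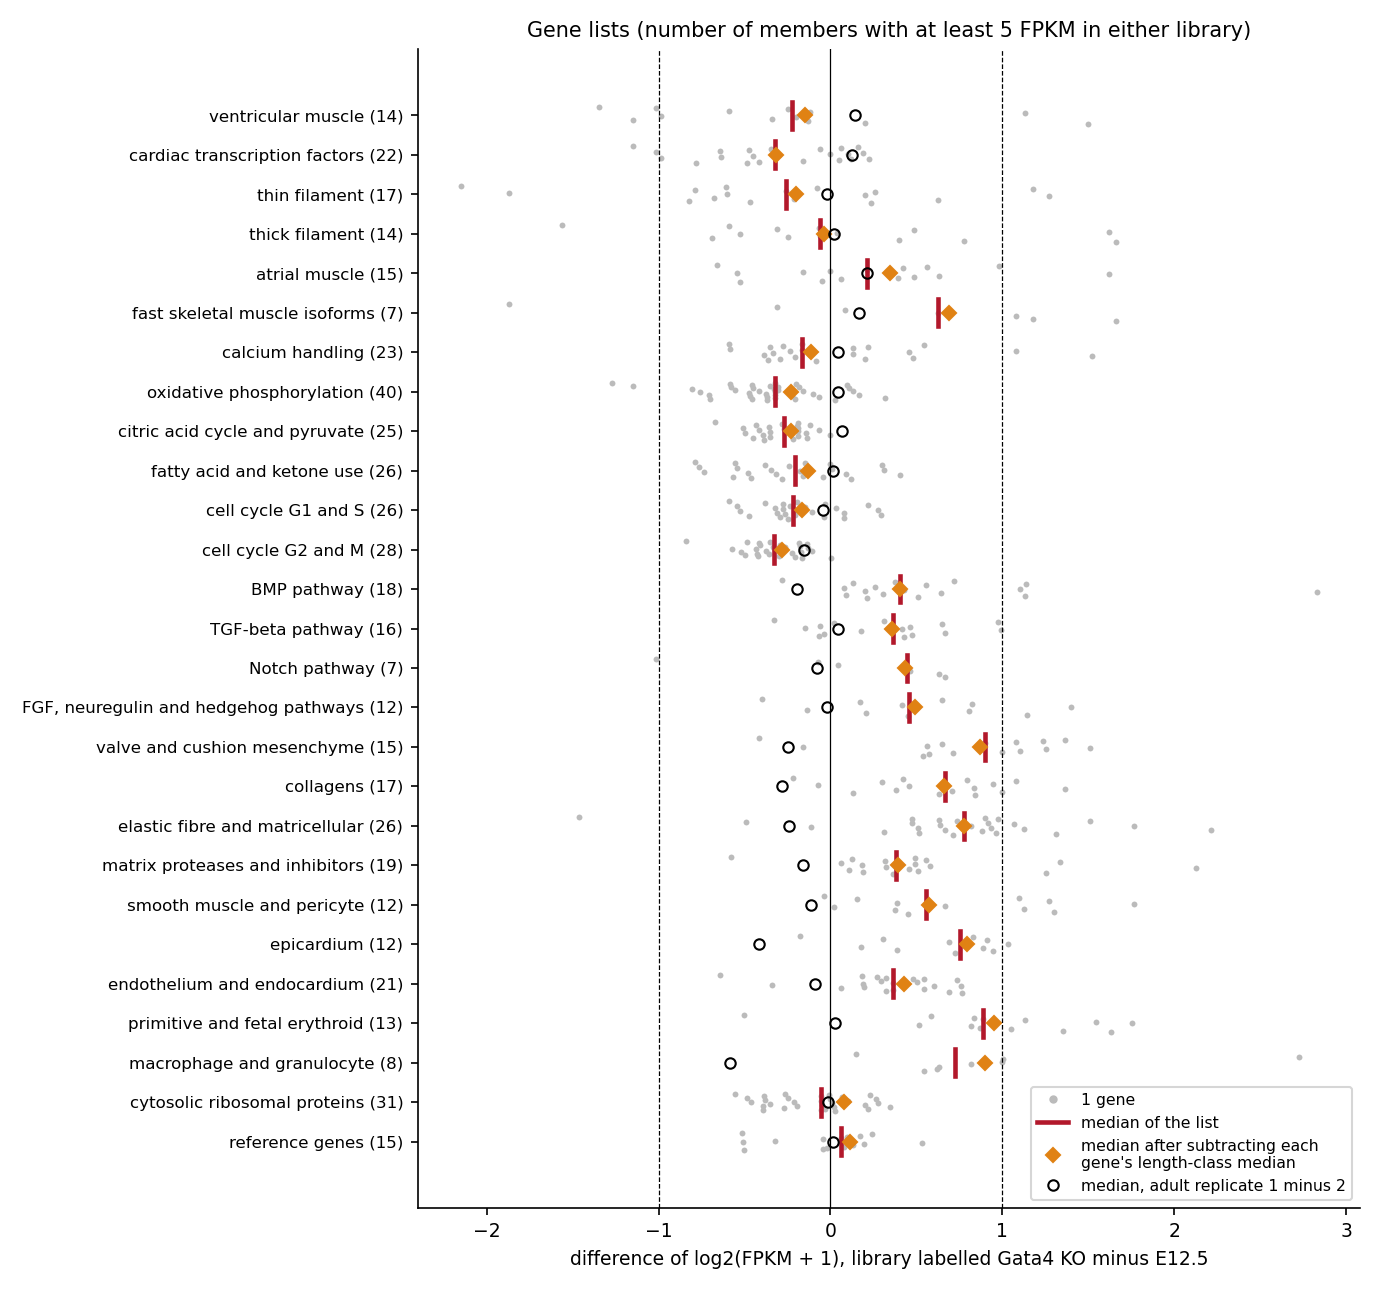
Difference in log2(FPKM + 1), library labelled Gata4 KO minus E12.5, of every member of 27 gene lists (grey points; number of members in brackets), with the list median (red bar), the median after the length step (orange diamond) and the median of the adult pair (open circle). Matrix, mesenchyme, epicardial and blood lists have medians from 0.38 to 0.90, and the energy and cell cycle lists have medians from -0.33 to -0.21.

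Blood genes stood higher in the labelled library and include its most abundant transcripts. At E12.5 primitive red cells from the yolk sac circulate through the heart and carry embryonic globins. Hbb-y, an embryonic beta-type globin, had 457750 reads against 174999 and stood at 15.34 against 13.71, a ratio of 3.09 (3.08 to 3.11). Hba-x stood at 14.33 against 12.78 (2.92, 2.90 to 2.94) and Hbb-bh1, another embryonic beta-type globin, at 11.20 against 9.45 (3.38, 3.30 to 3.46). The 3 ratios lay close together. Alas2 stood at 7.92 against 6.57 and the red cell anion exchanger Slc4a1 at 6.79 against 5.66. Of 13 members of the erythroid list 12 were higher and 6 passed 2-fold. The summed FPKM of the list's 24 matched genes was 65010 against 21452. The transferrin receptor Tfrc was lower at 3.91 against 4.41. An adult-type beta globin, Beta-s (Hbb-bs in RefSeq), which the list does not hold, was higher too, at 11.56 against 10.48, with 34365 and 19240 reads and a smaller ratio of 2.11 (2.08 to 2.15). The adult-type globins Hba-a1, Hba-a2 and Hbb-b2 are listed at 0 in both libraries, Hbb-b1 had 1 read against 0, and the counts of such near-identical copies are uncertain. All 3 embryonic globins were at 0 in the adult libraries.

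White cell markers were sparser. The macrophage and granulocyte list had 25 genes, 17 of them below 5 FPKM in both libraries. All 8 members were higher, with a median of 0.72, and the adult pair had -0.58 for 3 genes of the list. The sum over all 25 genes was 121 against 68.2 FPKM. S100a9, a granulocyte protein, had 71 reads against 4, at 3.20 against 0.47, a ratio of 20.99 (7.85 to 79.2). C1qa, a complement gene of macrophages, stood at 2.93 against 1.93. S100a9, C1qa and C1qc, the last with 10.07 against 4.55 FPKM, reached 5 FPKM only in the labelled library. The filter thus fixed their direction, and the count of 8 is in part its result. Platelet genes did not follow, with 2 of 5 higher and Pf4, platelet factor 4, at 3.05 against 3.53. Few markers of tissues next to the heart reached 5 FPKM in either library. Of 22 neural crest, Schwann and neuron genes only Sox3 was a member, while Sox10 stood at 0.17 against 0.05. Sox3 was lower at 2.85 against 4.55, among the 25 largest lower values. Of 20 liver, gut and lung genes only Trf was a member, at 3.66 against 2.91, and Alb stood at 0.04 against 0.27. Of 20 cartilage and bone genes Col2a1, at 3.95 against 3.60, and Col9a2, at 2.78 against 2.85, were members, and the list summed to 37.4 against 27.8 FPKM.

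Lists of general cell functions lay near the median of all members. Reference genes had 8 of 15 higher and a median of 0.06, with Actb at 10.47 against 9.95 and Eef2 at 8.49 against 8.53. Glycolysis and hypoxia genes had a median of -0.08, sterol synthesis 0.06 and heat shock and oxidative defence -0.01. Within the last, Hmox1, haem oxygenase 1, stood at 5.42 against 4.02, the only stress gene past 2-fold, and Hspb1 lower at 7.83 against 8.59. Fdft1, squalene synthase, was the sterol exception at 3.48 against 4.56, with its neighbour in the pathway Sqle at 3.59 against 3.50. Unfolded protein response genes had a median of 0.13 and immediate early genes 0.13, with Atf4 at 6.75 against 6.08 and Atf3 lower at 2.05 against 2.99.

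Of the genes past 2-fold, 66 higher and 48 lower ones were in none of the 51 lists. Among the largest higher ones, Ache, acetylcholinesterase, stood at 4.19 against 2.64 and Colq, the collagen tail that anchors it, at 3.52 against 1.94. Slit3, a guidance ligand, stood at 3.92 against 2.32 with 1255 and 421 reads, and Spink4, a secreted protease inhibitor known from gut, at 5.55 against 3.0. Hsd3b6, a steroid dehydrogenase, stood at 6.09 against 4.61 and was at 0 in both adult libraries. Neil2, a DNA repair glycosylase, stood at 2.86 against 0.74. Ppp1r17, a phosphatase inhibitor known from the cerebellum, had the largest lower value of all members at 1.39 against 3.58, a ratio of 6.80 in favour of E12.5 (5.06 to 9.31) from 50 and 402 reads. Rpa3, a replication protein A subunit, stood at 6.14 against 7.56, Aldh1b1, a mitochondrial dehydrogenase, at 5.15 against 6.38 and Eef1a2, a translation factor of muscle and neurons, at 4.45 against 5.87.

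Of the 61 lower genes, 9 were snoRNA, scaRNA or snRNA entries, a class looked at after its values were seen. It had 35 members, 27 of them lower, with a median of -0.62 in a poly(A)-selected library, and Scarna17 stood at 7.35 against 8.50. In the adult pair 6 of 12 such entries passed 2-fold in either direction, a pair with no difference of group.

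Genes close to the threshold show how little separates the sides. Just inside on the higher side were Tmcc3 at 2.66 against 1.66 and Tm4sf1 at 5.68 against 4.68, and just outside Tgfb3 at 3.88 against 2.89 and Col1a2 at 5.99 against 5.0. On the lower side Dpf3 at 3.18 against 4.18 and Spg21 at 3.31 against 4.33 lay inside, and Vcam1 at 3.68 against 4.68 and Irx4 outside.

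A pair of hearts labelled banding and sham, in which an operation loads the adult heart, shares no library with the E12.5 pair. There 128 of 5108 genes with at least 5 FPKM were at least 2-fold higher in banding, or 2.51%, and 51 were lower, or 0.998%. Only 48 of the 112 genes higher in the labelled library reached 5 FPKM in banding or sham. Of these 48, 10 were at least 2-fold higher in banding and none was lower by that size, which is 8.93% of the 112 and 7.81% of the 128. Of all 4384 members measured there, 88 were at least 2-fold higher and 16 lower. The 10 shared genes were Acta1, Bgn, Casq1, Col1a1, Col3a1, Mfap4, Mgp, Postn, S100a4 and S100a6. Postn stood at 5.13 in banding against 2.02 in sham and Acta1 at 9.59 against 6.48. Of the 61 lower genes 25 were measured there and only Rnf207, a cardiac potassium channel regulator, was also lower, at 4.54 against 6.03. Tnni3 was near equal in that pair at 11.92 against 12.15, and Mb at 11.36 against 11.26. Each of these groups also had 1 library, so the overlap describes these libraries.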

How the data were processed

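Poly(A)-selected RNA of mouse heart was sequenced, with random-hexamer reverse transcription per the labels' protocols. The submitters' processing notes name the build mm9 and, without roles, the tools TopHat 1.4, CASAVA 1.8.2, MACS 1.4, BWA 0.5.9 and HTSeq 0.5.3. The deposited files hold 1 log2(FPKM + 1) value per gene and library. From the values, the total mapped reads, the gene length and the whole reads were recovered: all 98043 values above 0 were whole within 0.001 of a read. For a few genes length and reads may be recovered as an exact divisor of the true ones, which leaves FPKM unchanged and widens the interval. Whether counting used strand is not stated, and near-identical gene copies are uncertain.

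Levels were used as deposited. A gene counted at 5 FPKM or more in either library and as higher or lower at a difference of 1 or more. Ratios of FPKM carry exact conditional binomial 95% intervals. Of 1191 entries in 51 lists, 1190 matched a symbol or a RefSeq synonym. The members and lists were chosen with earlier results of these data known. Named genes were Gata4 and its relatives, the 25 largest differences each way (no predicted genes, clones, small RNAs or pseudogenes), list members past 2-fold, up to 4 of each list with the highest level, 5 genes on each side of the thresholds, and a few further list members, chosen after their values were seen. The scripts were tested on simulated data, and used Python 3.11.15, numpy 2.4.6, pandas 2.3.3, scipy 1.17.1 and matplotlib 3.10.9. The other 39 samples of the series, chromatin libraries, were not analysed here.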

Additional observations from a re-analysis of the deposited data

How the results depend on the processing

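With 1 library a side no replicate could be left out, and results rest on the 2 libraries. No paired analysis was possible because each group compared had 1 library. The counts of 112 higher, 61 lower and 31 adult genes past the threshold became, at 20 FPKM or more, 51, 32 and 7. At 1.5-fold they became 378, 297 and 122, and at 3-fold 21, 9 and 10. With a filter of 1 FPKM, or with none, 105 genes were lower and 85 passed in the adult pair, and the higher count, 166, was within 1.5 times of 112. A pseudocount of 0.1 gave 150, 81 and 36. The 4 other scalings gave 120 to 128 higher and 52 to 58 lower genes with the adult count at 31, all 112 higher genes among them, and moved the median of all members to between -0.03 and -0.01. Subtracting the length-class median, an alternative chosen after seeing the data, gave 141, 42 and 31. Of 48 list medians, heat shock and oxidative defence changed sign, from -0.01 to 0.022 under median-of-ratios scaling, 0.026 without the erythroid list and 0.079 after the length step, and the ribosomal proteins, from -0.06, stood at 0.079 after it. None of the other 46 changed sign in the 4 alternatives run on lists, and no named gene past 2-fold did. Of 233 named genes, 76 moved by more than their counting interval covers with the length step. With rescaling without the erythroid list 44 did so, with median-of-ratios scaling 34 and with the pseudocount of 0.1 12. Of the named genes, 6 crossed the 2-fold rule with the length step: Hey2, at -0.96, and Cox5a, at -0.93, fell inside it, and Nppb, at 1.05, Col1a2, at 1.01, C1qc, at 1.13, and Tyrobp, at 1.04, passed it. The causes were not tested.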

Other observations

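The series lists a Rosa26BirA allele without saying which samples carry it. The transcript of that locus, Gt(ROSA)26Sor, stood at 4.05 in the library labelled Gata4 KO (336 reads) and 2.89 in E12.5 (164 reads), a ratio of 2.42, and at 0.61 and 0.79 in the adult libraries, 1.77 in banding and 1.36 in sham. It was chosen after its values were seen. MicroRNA entries, which a poly(A) library measures poorly, had 32 members, 18 higher and 14 lower, with 4 and 3 past 2-fold. In the adult pair 18 such entries had at least 5 FPKM, with 3 higher and 5 lower past 2-fold.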
